A study of Mus musculus with 11 samples.

Results

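The homeostatic identity of microglia was read from 9 genes, P2ry12, P2ry13, Tmem119, Cx3cr1, Gpr34, Siglech, Fcrls, Olfml3 and Sall1, which were chosen by symbol among the 32287 genes counted. UMIs (unique molecular identifiers, each marking 1 captured RNA molecule) of these genes were summed per mouse over 11759 microglia, 197 perivascular macrophages and 117 monocytes among 58585 kept cells. A microglial cell had at least 1 UMI of each of Fcrls, Csf1r and C1qc and no more than 3 UMIs of the endothelial genes Cldn5 and Flt1 together. Since Fcrls is itself one of the 9 genes, its presence in every microglial cell is set by this rule.

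Fragments of brain microvessels were pulled down with CD31 antibodies on magnetic beads, per the labels (the methods name CD31 panning), and their cells were profiled in 11 single-cell libraries, 1 mouse each. The R182C-TgN3 (CADASIL) mice, labelled Tg350, carried human NOTCH3 with the R182C change, and the control WT-TgN3 mice, labelled Tg100, carried human NOTCH3 without it, so that every mouse had a human NOTCH3 transgene. The groups were 3 CADASIL mice at 9 months (2 females and 1 male), 3 CADASIL mice at 6 months (2 females and 1 male), 3 control mice at 6 months (2 females and 1 male) and 2 control mice at 9 months (1 female and 1 male), none of them treated. What drives the transgene was not given in the sources used here. Mice of 9 months were prepared in batches 1 and 2 and mice of 6 months in batches 3 and 4, so age and batch cannot be told apart, and batch 2 held 1 CADASIL mouse and no control.

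Microglia are the resident macrophages of the brain parenchyma. Under steady conditions they express a set of surface receptors with which they sense nucleotides, chemokines and lipids from neighbouring cells, and this set depends on TGF-beta signalling, on CSF1R ligands and on the transcription factor SALL1. Receptors of the set are known to be lowered when microglia take up an activated state, such as the disease-associated microglia (DAM) found around amyloid plaques and in demyelination.

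The libraries held between 17550806 and 64215050 UMIs, and microglia made up 7.50% to 30.2% of the kept cells of a mouse, between 416 and 2197 cells. All 55 pairs of libraries shared some cell barcodes, from 5 to 350 per pair and at most 10.2% of the smaller library, and 185 of the microglia carried a shared barcode. The rule caps Cldn5 and Flt1, and 254 cells that passed it were taken out for markers of another class, 140 of them perivascular macrophage markers, so low levels of these markers in microglia follow in part from the selection. A list of 8 endothelial genes reached 122.6 UMIs per 1000000 UMIs of the class (CPM) in microglia against 17983 CPM in endothelial cells, and a list of 8 perivascular macrophage genes reached 9.93 CPM against 6056 CPM in perivascular macrophages. Summed levels per mouse ranged from 65.9 to 208 CPM for the endothelial list and from 5.97 to 24.3 CPM for the perivascular macrophage list. A list of 20 genes induced by tissue dissociation ranged from 29149 to 51662 CPM.

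In the mm10 genome (GRCm38) P2ry12 lies on chr3:59216272-59262871 and P2ry13 on chr3:59207892-59210882, both on the minus strand and both within the span of Med12l, which is read from the plus strand. Fcrls (chr3:87250758-87263738) and Olfml3 (chr3:103722222-103738001) are on the same chromosome and strand. Tmem119 lies on chr5:113793729-113800516, Siglech on chr7:55768178-55778925, Sall1 on chr8:89027235-89044162 and Cx3cr1 on chr9:119901616-120069879. The span of Cx3cr1 overlaps Wdr48 and Ttc21a on the other strand and Gorasp1, Csrnp1 and Xirp1 on its own minus strand, and how UMIs were assigned there was not given in the sources used here. Gpr34 lies on chrX:13632089-13640858 within Cask, which is read from the other strand. UMIs were taken from the 3′ ends of transcripts, and whether intronic reads were counted was not given in the sources used here.

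Promoter windows from RefSeq (GRCm38.p6, 250 bases before to 50 bases after a transcription start, all 4 shown on the minus strand and written 5′ to 3′ along the gene) are given for P2ry13 and P2ry12, which had the largest falls in DAM-gated microglia together with Tmem119, for Cx3cr1, which had a smaller fall, and for Fcrls, the gene of the 9 that the microglia gate requires. The windows are chr3:59210833-59211132 for P2ry13, chr3:59262936-59263235 for P2ry12, chr3:87263475-87263774 for Fcrls and chr9:120068247-120068546 for Cx3cr1. Capitals mark GAGGAA, a sequence that PU.1, the factor required for macrophage fate, is known to bind.
P2ry13: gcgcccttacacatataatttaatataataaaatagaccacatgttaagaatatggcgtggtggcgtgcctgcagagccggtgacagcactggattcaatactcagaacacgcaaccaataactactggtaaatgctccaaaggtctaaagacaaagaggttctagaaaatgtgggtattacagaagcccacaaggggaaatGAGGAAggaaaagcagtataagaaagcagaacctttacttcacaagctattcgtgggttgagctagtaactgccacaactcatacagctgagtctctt
P2ry12: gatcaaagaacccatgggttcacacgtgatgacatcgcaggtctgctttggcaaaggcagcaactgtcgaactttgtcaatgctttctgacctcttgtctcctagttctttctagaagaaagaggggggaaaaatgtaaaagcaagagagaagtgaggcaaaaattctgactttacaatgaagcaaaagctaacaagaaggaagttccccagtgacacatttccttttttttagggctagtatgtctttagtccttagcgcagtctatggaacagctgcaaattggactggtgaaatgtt
Fcrls: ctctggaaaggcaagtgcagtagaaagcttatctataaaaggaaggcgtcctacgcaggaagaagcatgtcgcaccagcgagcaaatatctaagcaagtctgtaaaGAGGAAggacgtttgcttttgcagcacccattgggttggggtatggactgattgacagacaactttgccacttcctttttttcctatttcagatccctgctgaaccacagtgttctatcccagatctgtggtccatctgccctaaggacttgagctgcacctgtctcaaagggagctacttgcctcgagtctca
Cx3cr1: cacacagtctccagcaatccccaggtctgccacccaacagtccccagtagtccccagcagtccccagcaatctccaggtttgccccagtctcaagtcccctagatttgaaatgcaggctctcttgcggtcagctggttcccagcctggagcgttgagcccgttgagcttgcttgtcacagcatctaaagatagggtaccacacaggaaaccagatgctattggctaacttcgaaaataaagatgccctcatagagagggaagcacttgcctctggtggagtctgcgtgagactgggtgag
RefSeq windows were found for 7 of the 9 genes, 9 windows in all, and GAGGAA was searched on both strands. It occurred in 3 of the 9 windows, at -48 from the start in P2ry13, at -144 in Fcrls and, on the other strand, at -4 in Siglech, against 28.3% of all 32851 windows of this length. The longer form GAGGAAGT, of which GAGGAA is a part, was in none of the 9 windows and in 3.20% of all windows. The MEF2 core TAAAAATA (2.72% of all windows) and the interferon regulatory factor pattern GAAANNGAA (8.56%) were also in none of them. Of the 4 windows shown, P2ry13 and Fcrls held GAGGAA and P2ry12 and Cx3cr1 did not. Other forms of a PU.1 site were not searched, so a window without GAGGAA is not read as free of such sites.

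In microglia each of the 9 genes was present in all 11 mice at a level that varied little. The ADP receptor P2ry12, with which microglia steer their processes to sites of damage, had 1650.5 ± 185 CPM (SD, n = 11), and the related ADP receptor P2ry13 had 386 ± 57.9 CPM. Cx3cr1, the receptor for the neuronal and endothelial chemokine fractalkine, had 2882 ± 284 CPM, and Gpr34, a receptor for lysophosphatidylserine, had 1243 ± 152 CPM. Among the other surface proteins, Tmem119 had 692 ± 53.0 CPM, the sialic acid-binding lectin Siglech 910.1 ± 76.9 CPM and the Fc receptor-like gene Fcrls 1008 ± 102 CPM. The secreted olfactomedin-like protein Olfml3 had 795 ± 114 CPM, and the zinc finger transcription factor Sall1 had 232 ± 30.7 CPM. Between-mouse variation, as the SD over the mean, ranged from 7.66% for Tmem119 to 15.0% for P2ry13. The lowest value of 5 of the 9 genes was found in the same mouse, control 6-month mouse 2.

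Because the gate requires Fcrls, these levels are those of cells selected for it. A gate without Fcrls (Csf1r and C1qc, with the same limits otherwise), chosen after seeing the data, took 13208 cells, of which 1449 (10.97%) had no Fcrls UMI. The cells without Fcrls had a median of 3048 UMIs and those with it 5295 UMIs. After thinning to 2000 UMIs each of the other 8 genes was higher in cells with Fcrls in 11 of 11 mice. The ratio ran from 1.15-fold on average (Cx3cr1) to 1.32-fold (Olfml3). The share of all genes that were higher in every mouse was not computed, so this count is not read as particular to the 8. P2ry12 had 1673 ± 175 CPM in thinned cells with Fcrls and 1356 ± 199 CPM in those without it. Under this gate the level of Fcrls itself was 926 ± 118 CPM.

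Perivascular macrophages, which sit between vessel and parenchyma, and monocytes, which come from the blood, differed from microglia in the share of the set they held. These levels are a description without a test, since the genes were chosen as microglial genes. In perivascular macrophages the 9 genes had between 3.44% (Sall1) and 63.4% (Fcrls) of their microglial level, with a median of 16.9%. Of these 197 cells, 140 also passed the microglia rule, each with at least 1 Fcrls UMI, and were placed here by their markers. Fcrls had 647 ± 152 CPM in the 9 mice with at least 10 such cells and Cx3cr1 929 ± 355 CPM. P2ry12 had 244 ± 105 CPM, Gpr34 281 ± 101 CPM and Siglech 163 ± 74.3 CPM. Tmem119 and Sall1 were the genes nearest to absence, with 43 and 7 UMIs over all 197 cells.

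In monocytes Cx3cr1 stood apart with 12.8% of its microglial level, 357 ± 72.6 CPM in the 4 mice with at least 10 cells. The other 8 genes had from 0.542% (Sall1, 1 UMI in 117 cells) to 2.95% (P2ry13, 9 UMIs). Endothelial cells, which are not known to express these genes, had 0.589% to 0.972% of the microglial level for every one of the 9, and in single mice the median over the genes ran from 0.326% to 1.73%. All 9 values in perivascular macrophages were above those in endothelial cells, and the monocyte values other than that of Cx3cr1 lay nearer to them. For Sall1 the value in perivascular macrophages rested on 7 UMIs, 5 of them from CADASIL 9-month mouse 3. Its median over the 9 mice with at least 10 such cells was 0.

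**Figure D1:**
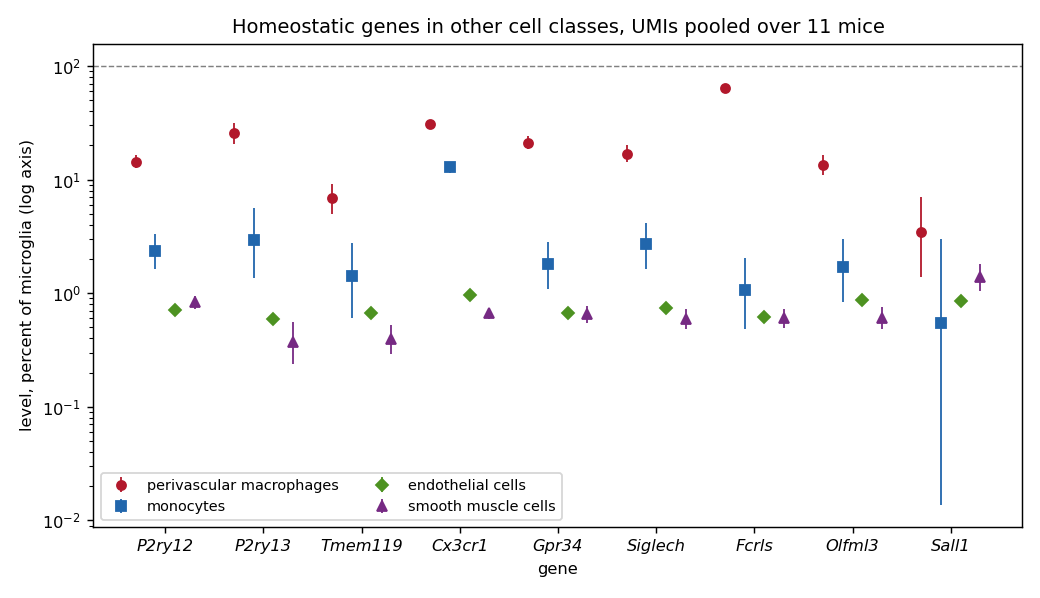
Level of each gene in 4 other cell classes as a percent of its level in microglia, on a log axis, from UMIs pooled over 11 mice. Bars are exact 95% Poisson intervals that cover counting error only, and the dashed line marks the microglial level. Perivascular macrophages lie between 3.44% and 63.4%, and endothelial cells lie below 1% for every gene.

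Outside the macrophages and monocytes, some genes had higher values than in endothelial cells. Olfml3 reached 292.5 CPM in 65 fibroblasts (207 UMIs, exact 95% Poisson interval 254 to 335), which was 37.1% of its microglial level. Sall1 reached 50.0 CPM in 75 astrocytes (53 UMIs, interval 37.5 to 65.4), or 22.4%, and 13.4 CPM in 537 pericytes (24 UMIs, interval 8.57 to 19.9), or 5.98%. Tmem119 in fibroblasts reached 28.3 CPM (20 UMIs), or 4.09%. Olfml3 in pericytes reached 19.5 CPM (35 UMIs, interval 13.6 to 27.1), or 2.47%, and Gpr34 in 239 T or NK cells 25.7 CPM (30 UMIs, interval 17.3 to 36.7), or 2.03%. Fibroblasts with at least 10 cells came from 2 mice and astrocytes likewise. T or NK cells had 0.380% to 2.03%, smooth muscle cells 0.375% to 1.40%, B cells 0.983% to 1.42% and neurons 0.0670% to 0.823% of the microglial level.

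The same order was seen cell by cell. After thinning to 2000 UMIs, which left out 1092 microglia and 24 perivascular macrophages of lower depth, Cx3cr1 was found in 98.8% of 10667 microglia, P2ry12 in 92.5% and Gpr34 in 86.3%. P2ry13 was found in 51.6% and Sall1 in 35.0%. In 173 perivascular macrophages the shares were 68.2% for Cx3cr1, 65.3% for Fcrls and 38.2% for Gpr34, but 4.62% for Tmem119 and 0.578% for Sall1. Before thinning, Sall1 had a UMI in 62.1% of microglia and Tmem119 in 10.2% of perivascular macrophages. The share of Sall1 in perivascular macrophages was close to its 0.501% in 33154 endothelial cells, and median depths were 5295, 4192 and 4768 UMIs in the 3 classes.

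Monocytes had Cx3cr1 in 57.0% of 114 cells, and none of the other genes passed 5.26%. Olfml3 was found in 0 of 114 monocytes, which allows a share of up to 2.63% for cells with a UMI. Counted over the 8 genes other than Fcrls, a thinned microglial cell held 5.91 of them on average, a perivascular macrophage 2.03, a monocyte 0.737 and an endothelial cell 0.162. At least 4 of the 8 were found in 96.6% of microglia and 14.5% of perivascular macrophages. Only 6 of the 10667 microglia (0.0562%) held none.

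**Figure D2:**
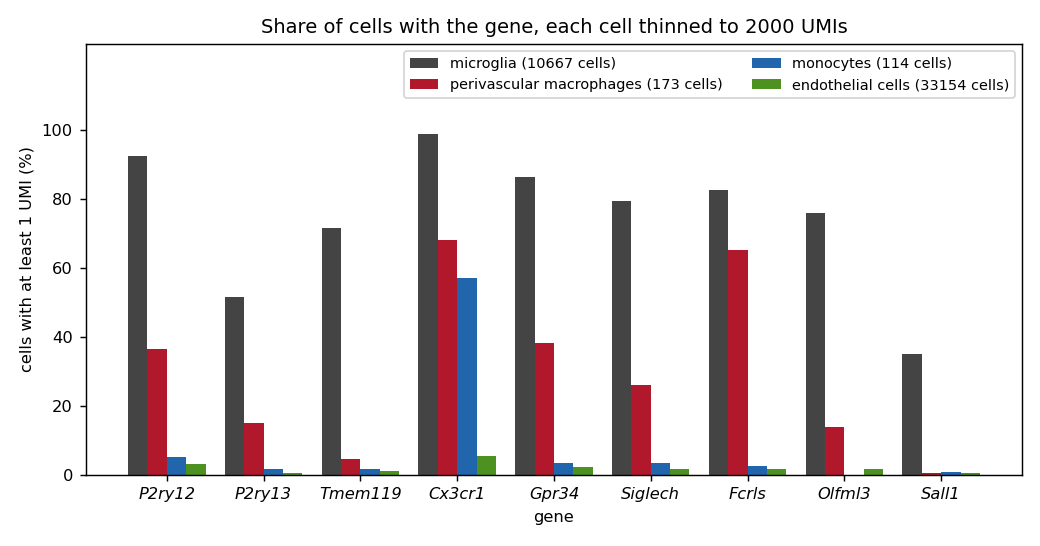
Percent of cells with at least 1 UMI of each gene after each cell was thinned to 2000 UMIs, for microglia, perivascular macrophages, monocytes and endothelial cells. Cx3cr1 and Fcrls are found in most perivascular macrophages, while Tmem119 and Sall1 are found in 4.62% and 0.578% of them.

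Ligands for these receptors and for the signals that maintain the set were read in the same libraries. Cx3cl1, which encodes fractalkine, had 68.9 ± 5.39 CPM in endothelial cells (n = 11) and 0.315 ± 0.296 CPM in microglia, the opposite side from its receptor Cx3cr1. It had 103 CPM in the 75 astrocytes pooled. Il34, a ligand of CSF1R, had 450.5 ± 100.5 CPM in pericytes and 98.2 ± 16.8 CPM in smooth muscle cells against 1.48 ± 0.554 CPM in endothelial cells. Csf1, the other ligand, had 115 ± 40.5 CPM in microglia and 63.3 ± 5.69 CPM in endothelial cells. Tgfb1 had 311 ± 26.8 CPM in microglia and 80.1 ± 6.98 CPM in endothelial cells.

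Among 8514 genes ranked over 12 cell classes, those with the pattern most like the mean of the 9 were Trem2 (Pearson r = 0.967), Kcnk13 (0.964), C1qb (0.961), C1qa (0.959) and C1qc (0.958). C1qc is in the gate, and the classes share libraries and free RNA, so these values describe likeness only. Their levels in perivascular macrophages varied. C1qa had 4366 CPM there against 4548 CPM in microglia, and Trem2 had 476 CPM against 1230.4 CPM. Of the other most alike genes, 8030442B05Rik had 12.3 CPM against 180 CPM. Over the microglia of the 11 mice, 35 of the 36 pairs among the 9 genes had a correlation above 0, with a median of 0.473. The share above 0 among pairs of all genes was not computed, so this count is not read as particular to the 9. The highest was between P2ry12 and Siglech (0.838) and the lowest between Tmem119 and Olfml3 (-0.112). Over the mice the gene most like P2ry12 was Dhx36 (0.911), the one most like Siglech was Kbtbd7 (0.970) and the one most like Sall1 was Il16 (0.937), each the highest of 10788 genes over the same 11 points.

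Whether the CADASIL transgene changed the set in microglia was the comparison of the study. None of the 9 genes passed the test between 6 CADASIL and 5 control mice (edgeR quasi-likelihood test, adjusted p = 0.999944 for each). Of all genes tested, 0 of 10797 (0%) passed, and 109 had an unadjusted p under 0.05, none of them among the 9. DESeq2 also called 0 genes. Log2 fold changes, CADASIL over control, ran from -0.02 for Sall1 and Siglech to 0.15 ± 0.11 (SE) for Gpr34, with SEs from 0.09 to 0.13.

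P2ry12 in control mice had 1667, 1367, 1642, 2011 and 1608 CPM, and CADASIL mice had a lowest value of 1404, a median of 1688 and a highest of 1811 CPM. The control mice therefore spanned the whole range of the CADASIL mice. In the paper's own microglia analysis a control sample, not named there, was left out because its microglia looked strongly polarized. All control mice were kept here. With any 1 mouse left out, none of the 9 genes was called between the genotypes. Gpr34 had 1179.8, 1040.1, 1378, 1122 and 1239 CPM in control mice, and 1112, 1237 and 1519 CPM as the lowest, median and highest of the CADASIL mice. The groups overlapped for this gene too, which had the largest difference of the 9.

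For Tmem119 the control mice were close together at 676, 685, 657, 718 and 660.2 CPM, while CADASIL mice ranged from 612 to 779 CPM with a median of 709.6 CPM. Cx3cr1 had 2944, 2385, 3144, 3010.1 and 2801 CPM in control mice and 2403 to 3279 CPM in CADASIL mice. For Sall1 the values were 259, 237, 235, 258 and 195 CPM in control mice and 177 to 276 CPM in CADASIL mice. In each case the values of both genotypes interleaved.

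Within batches the direction was not the same. In batch 1 (2 mice of each genotype) 2 of the 9 genes were higher in CADASIL mice, with log2 ratios from -0.27 (Sall1) to 0.04 (Fcrls). In batch 3 (2 and 2) 7 of 9 were higher, from -0.05 to 0.16, and in batch 4 (1 and 1) 5 of 9, from -0.20 to 0.23. Batch 2 had no control mouse.

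At 6 months alone none of the 9 genes passed (1 of 11384 genes, 0.00878%, passed in all), and at 9 months none passed either (1 of 11384, 0.00878%). Log2 fold changes at 6 months ran from -0.01 for Sall1 to 0.17 ± 0.17 for Gpr34, and at 9 months from -0.10 ± 0.18 for P2ry12 to 0.18 ± 0.18 for Fcrls. With 1 mouse left out the highest value of the 9 ran from 0.04 to 0.27 at 6 months and from 0.10 to 0.33 at 9 months. The difference between the ages in the genotype effect was tested by an interaction term, and it passed for none of the 9 genes and for 0 of 11384 genes (0%; 243 had an unadjusted p under 0.05, and DESeq2 called 2). The widest interaction was that of P2ry12, -0.22 ± 0.24.

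In perivascular macrophages 6 of the 9 genes had enough counts to be tested between 5 CADASIL and 4 control mice, and P2ry13, Tmem119 and Sall1 did not. None of the 6 passed, with 0 of 1428 genes (0%) passing in all, 46 at an unadjusted p under 0.05, and up to 9 under the alternatives. Log2 fold changes ran from -0.13 ± 0.53 for Olfml3 to 0.28 ± 0.34 for P2ry12, and the SEs, 0.29 to 0.53, were wider than the 0.09 to 0.13 in microglia. P2ry12 had 218, 119, 461, 359 and 173 CPM in CADASIL mice and 194, 257, 236 and 181 CPM in control mice. CADASIL values lay on both sides of all control values.

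**Figure D3:**
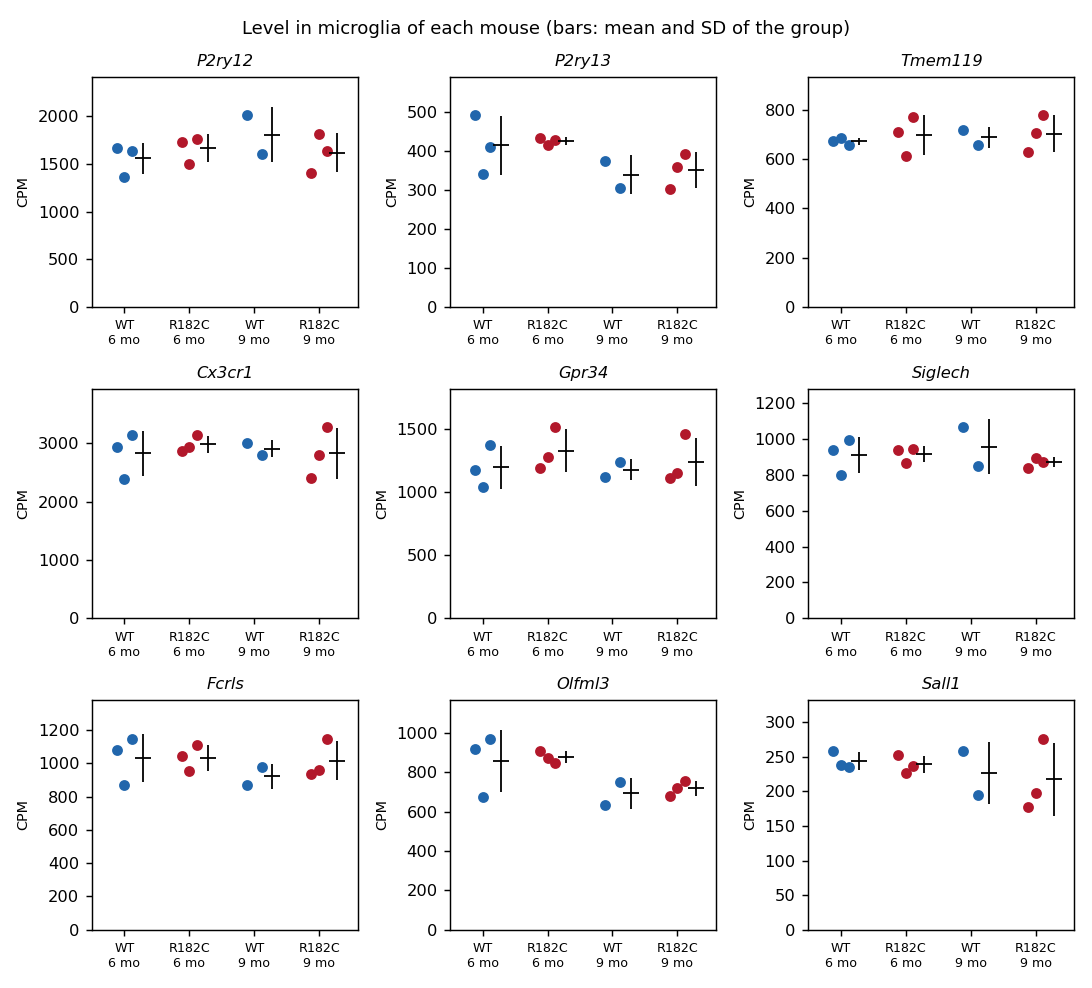
Level of each gene in microglia of each of 11 mice, in CPM on axes that start at 0, by genotype and age. Points are mice and bars give the mean and SD of the group (2 or 3 mice). The genotypes overlap for every gene, and P2ry13 and Olfml3 lie lower in the 9-month groups.

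Between 9 and 6 months none of the 9 genes passed either, against 36 of 11140 genes (0.323%) in all. Olfml3 and P2ry13 came nearest, with log2 fold changes of -0.29 ± 0.11 (edgeR adjusted p = 0.202) and -0.29 ± 0.10 (adjusted p = 0.203). Olfml3 had 682, 718, 757, 637 and 749 CPM in the 5 mice of 9 months, and 677, 892 and 972 CPM as the lowest, median and highest of the 6 mice of 6 months. Control 6-month mouse 2 was within the 9-month range, and the other 5 mice of 6 months were above it.

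P2ry13 had 300.4, 357, 392, 374 and 303 CPM at 9 months and 340.1 to 491 CPM at 6 months, with the same mouse lowest. P2ry12 (0.07 ± 0.11), Tmem119 (0.02 ± 0.10) and Siglech (-0.01 ± 0.10) were near 0. Of the 20 dissociation genes, the heat shock gene Hspa1a rose at 9 months by 1.73 ± 0.31 on the log2 scale (edgeR adjusted p = 0.0246), and its part in these differences was not tested.

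Microglia were then split within each mouse by genes of known activation states, none of them among the 9, and the gated cells were set against the ungated microglia from the same animal. Only cells of at least 2000 UMIs entered, and gates were read after thinning. The DAM gate took 86 of 10667 microglia (0.806%, 0.281% to 2.03% per mouse) that had at least 2 of Clec7a, Itgax, Cst7, Lpl, Spp1, Gpnmb, Lgals3 and Fabp5. Of these, 59 were at exactly 2 genes, and 551 cells were just outside at 1 gene. Mice with at least 10 gated cells were tested, which were CADASIL 9-month mice 1 and 3, control 6-month mouse 3 and control 9-month mouse 2, with 51 gated and 6411 other cells.

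All 9 homeostatic genes fell in DAM-gated microglia, where 619 of 10538 genes (5.87%) passed in all and 320 (3.04%) passed as lower. The ADP receptors and Tmem119 fell most, with log2 fold changes of -1.86 ± 0.28 for P2ry13, -1.74 ± 0.23 for P2ry12 and -1.74 ± 0.24 for Tmem119 (edgeR adjusted p = 5.13e-09, 9.65e-12 and 2.33e-10). Gpr34 fell by 1.19 ± 0.22, Olfml3 by 1.11 ± 0.23, Siglech by 1.10 ± 0.23 and Sall1 by 1.10 ± 0.28 (adjusted p = 1.14e-05, 7.6e-05, 7.71e-05 and 0.00321). Cx3cr1 fell by 0.77 ± 0.22 and Fcrls by 0.73 ± 0.22 (adjusted p = 0.0122 and 0.0189). Each of the 9 was lower in 4 of 4 mice, and how many of all genes were so was not counted. The SEs and p-values of this fit rest on a spread shared across genes. They do not measure each gene's own spread over the 4 mice. DESeq2 called 7 of the 9, without Fcrls and Sall1 (352 of 10538 genes in all). With DESeq2's size factors edgeR also called 7, without Cx3cr1 and Fcrls (543 of 10538). The median of all genes was -0.19, and relative to it the 9 genes had -1.66 (P2ry13) to -0.54 (Fcrls).

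P2ry12 had 599 CPM in gated and 1439 CPM in other cells of CADASIL 9-month mouse 1, and 285 against 1672 CPM in CADASIL 9-month mouse 3. It had 410.4 against 1653 CPM in control 6-month mouse 3 and 713 against 1622 CPM in control 9-month mouse 2. Thus the highest gated value was below the lowest other value, with 203 UMIs of P2ry12 behind the gated values.

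Tmem119 had 261, 126, 171 and 272 CPM in the gated cells of these mice, in the same order, and 630.5, 788, 659 and 660.5 CPM in their other microglia. For P2ry13 the gated values were 84.4, 57.1, 137 and 122 CPM (37 UMIs in all) and the other values 298, 386, 412 and 303 CPM. Gated and other values did not overlap for these genes, nor for the remaining 6.

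Cx3cr1 kept 61.6% of its level in the other cells on average, with 1404, 1622, 2326 and 1857 CPM against 2433, 3318, 3143 and 2816 CPM. Fcrls kept 63.0%, with 537, 639.5, 616 and 807 CPM against 911, 1138, 1146 and 971 CPM. By the rule every gated and every other cell had at least 1 Fcrls UMI, which limits how far Fcrls can fall, so its place among the 9 is not read. Under the gate without Fcrls all 9 genes passed as lower, where 972 of 10609 genes passed in all, 40.7% of them as higher. Fcrls fell there by 0.81 ± 0.18 on the log2 scale and Cx3cr1 by 0.79 ± 0.17 (edgeR adjusted p = 0.000355 and 0.000191). P2ry13, P2ry12 and Tmem119 kept 29.2%, 31.9% and 31.1%. Whether these genes differ from one another in the size of their fall was not tested. Sall1, the only transcription factor of the 9, kept 49.9%, with 123, 57.1, 137 and 103 CPM against 179, 280.2, 235 and 196 CPM (40 UMIs in the gated cells).

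**Figure D4:**
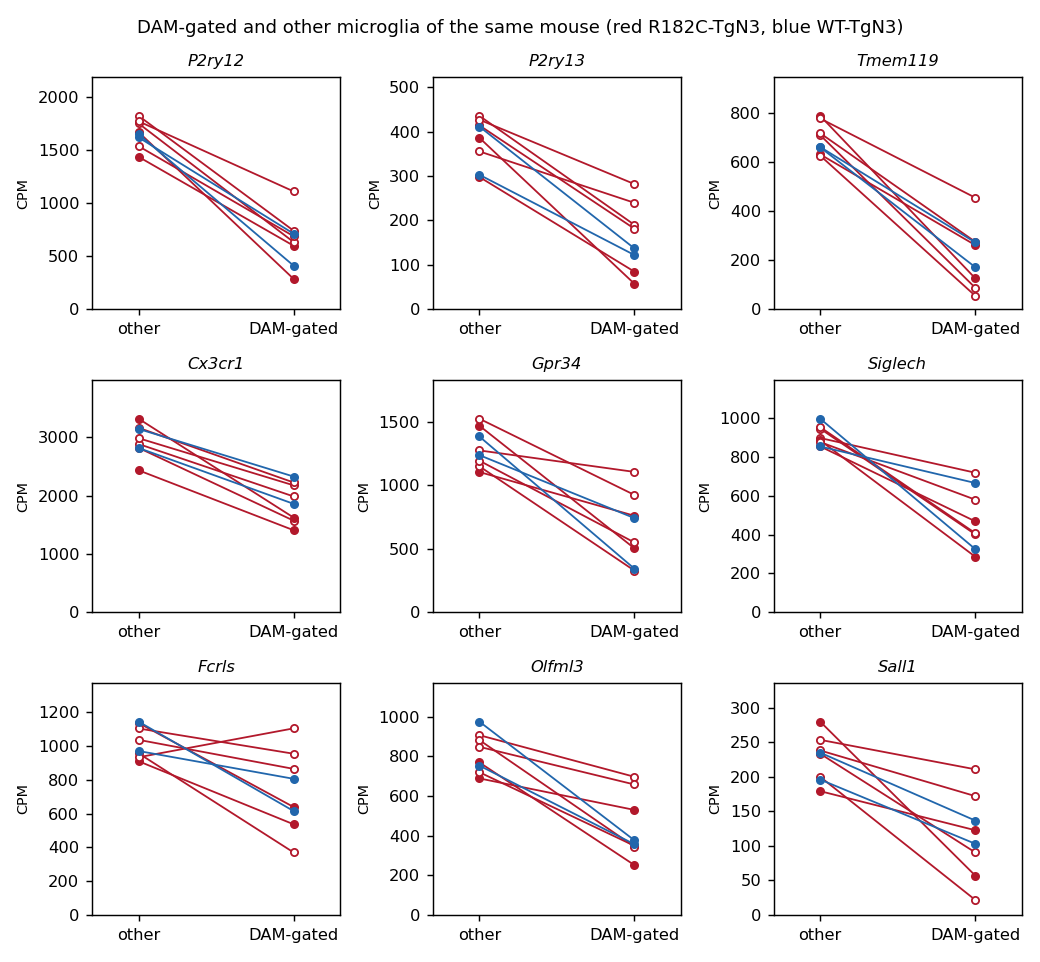
Level of each gene, in CPM on axes that start at 0, in DAM-gated and other microglia of the same mouse, joined by a line, for the 8 mice with at least 5 gated cells. Red lines are CADASIL (R182C-TgN3) and blue lines control (WT-TgN3) mice, and filled points mark the 4 mice with at least 10 gated cells. All lines go down except 1 for Fcrls.

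With at least 5 gated cells, a limit chosen after seeing the data, 8 mice and 78 gated cells entered. All 9 genes again passed as lower, where 1409 of 9898 genes passed in all, 29.7% of them as higher. Lower values were found in 8 of 8 mice for 8 of the genes and in 7 of 8 for Fcrls. The exception had 1106 CPM of Fcrls in gated and 934 CPM in other cells, in CADASIL 6-month mouse 2. How many of all genes were lower in every mouse was not counted. A cell with a single gene of the gate already had lower values on the thinned scale. P2ry12 had 1674 ± 174 CPM in cells with none of the gate genes, 1217 ± 128 CPM with 1 of them (n = 11 mice each) and 598 ± 211 CPM with 2 or more (n = 4). Tmem119 had 711 ± 64.3, 576 ± 101 and 179 ± 128 CPM, and Fcrls 1023 ± 103, 880.4 ± 133 and 682 ± 84.9 CPM in the same order.

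Markers of other cells moved with the gate. The perivascular macrophage list had 134 CPM in gated and 8.45 CPM in other cells, against 6056 CPM in perivascular macrophages, with 4 of its 8 markers at 0 and a range of 0 to 246 CPM over the 4 mice. The monocyte list had 30.4 and 6.11 CPM, with 5 of 8 markers at 0 and a range of 7.67 to 34.2 CPM, the endothelial list 98.8 and 119 CPM, and the dissociation list 42748 and 41957 CPM. Of the 86 gated cells, 69 had no UMI of any perivascular macrophage or monocyte marker. When cells with such a marker were left out, a setting chosen after seeing the data, 3 mice and 35 gated cells remained. Of the 9 genes 8 passed, where 378 of 10184 genes passed in all, 45.2% of them as higher. Fcrls did not, with -0.65 on the log2 scale (edgeR adjusted p = 0.178). Gated cells had a median of 7062 UMIs and other cells 5599 UMIs. When the thinned UMIs were summed, the same number from each cell, 8 of the 9 genes passed as lower and Sall1 did not (-1.16 ± 0.43, edgeR adjusted p = 0.0923), with 443 genes called in all and an all-gene median of -0.59.

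The calls of 3 genes depended on single mice. The call of Cx3cr1 was lost without CADASIL 9-month mouse 1 or 3 (edgeR adjusted p = 0.102 and 0.0684), with log2 fold changes of -0.80 and -0.73. The call of Sall1 was lost without CADASIL 9-month mouse 3 (-0.84, edgeR adjusted p = 0.109). Fcrls lost its call without CADASIL 9-month mouse 1 or 3 or without control 6-month mouse 3, at -0.75, -0.74 and -0.61 (edgeR adjusted p = 0.0997, 0.0572 and 0.161).

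Other genes of the homeostatic programme were read from a list of 25, which holds Csf1r and C1qc of the microglia gate. The gate limits how far these genes can fall, as it does for Fcrls. In DAM-gated cells 14 of the 25 passed as lower and none as higher, with a median of -0.94 on the log2 scale against -0.19 over all genes. The crystallin gene Crybb1 fell by 2.74 ± 0.36, and Selplg, the P-selectin ligand, fell by 1.54 ± 0.23. Tyrobp, the signalling adaptor that Siglech uses, had 0.65 ± 0.22 (edgeR adjusted p = 0.0503). Among 12 transcription factors of microglia 9 had values below 0, with a median of -0.29, and only Maf passed, at -0.90 ± 0.23 (edgeR adjusted p = 0.00309). The 10 tested genes of the TGF-beta axis all had values below 0, with a median of -0.51. Only Ski, a repressor in this pathway, passed, at -0.78 ± 0.23. Of 5 tested purinergic partners 3 had values below 0, with a median of -0.14. Only Entpd1, the surface enzyme that breaks down ATP and ADP, passed, at -1.26 ± 0.23. These counts of 1 of 12, 1 of 10 and 1 of 5 stand against 3.04% of all genes that passed as lower. The dissociation list went both ways, with Ccl4 and Ccl3 among the 3 of 20 genes that passed as higher and Fosb and Hspa1a the 2 that passed as lower.

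A second gate took cells that expressed cytokine and chemokine genes, with at least 3 of Ccl2, Ccl3, Ccl4, Cxcl2, Il1a, Il1b and Tnf. It held 5895 of the 10667 microglia (55.3%, 33.8% to 63.3% per mouse), and 3297 of them were at exactly 3 genes with 2834 cells just outside at 2. The changes in the 9 genes were small. Siglech fell by 0.12 ± 0.02, P2ry12 by 0.10 ± 0.02 and Cx3cr1 by 0.06 ± 0.02 on the log2 scale (edgeR adjusted p = 0.000228, 0.000625 and 0.0352). These 3 of 9 genes stood against 992 of 10496 genes (9.45%) in all and 524 (4.99%) that were lower.

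Siglech had 881 ± 71.7 CPM in gated and 959 ± 79.7 CPM in other microglia (n = 11), with lower values in 11 of 11 mice. P2ry12 had 1613 ± 165 and 1736 ± 201 CPM and was lower in 10 of 11 mice, as was Cx3cr1, with 2845 ± 262 and 2978 ± 315 CPM. The ranges overlapped for all 3 genes. Fcrls (-0.07 ± 0.02) and Sall1 (-0.10 ± 0.03) missed the threshold (edgeR adjusted p = 0.0528 and 0.0542), and Olfml3 (-0.01 ± 0.02) was near 0.

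The call of Cx3cr1 was lost when any of 10 of the 11 mice was left out, the exception being control 6-month mouse 2. When thinned UMIs were summed in place of all UMIs, or when the 5 control mice were taken alone, none of the 9 genes passed. The dissociation list, which shares genes with this gate, had 44695 CPM in gated and 38344 CPM in other cells, and its part in the result was not tested. Of the 25 other homeostatic genes 11 passed as lower, Slco2b1 by 0.16 ± 0.03 and the integrin gene Itgam by 0.14 ± 0.03 among them. A further 4 passed as higher, Tyrobp by 0.10 ± 0.03 and C1qb by 0.08 ± 0.02 among them.

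The last gate took 59 interferon-responsive microglia (0.553%) with at least 3 of Ifit1, Ifit2, Ifit3, Isg15, Irf7, Oasl2, Usp18, Rsad2 and Cxcl10. Only control 6-month mouse 3 and control 9-month mouse 2 had 10 or more of them, with 10 and 19 cells, so CADASIL mice did not enter this test. All 9 genes had values below 0 and 2 passed, Fcrls lower by 0.84 ± 0.23 and Gpr34 by 0.79 ± 0.22 on the log2 scale (edgeR adjusted p = 0.0248 and 0.0290). In all, 146 of 10097 genes (1.45%) passed, 28 of them (0.277%) as lower, and the median of all genes was -0.23. As in the DAM fit, SEs and p-values rest on a spread shared across genes, not on each gene's own spread over the 2 mice.

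Gpr34 had 873 CPM in gated and 1380.2 CPM in other microglia of control 6-month mouse 3, and 801 against 1239 CPM in control 9-month mouse 2. Fcrls had 940.2 against 1143 CPM and 485 against 976 CPM in these mice. Gated values were below all other values for both genes, which was not counted over all genes. DESeq2, and edgeR with DESeq2's size factors, called none of the 9. Sall1 had the widest difference, -1.23 ± 0.39 (edgeR adjusted p = 0.0887), with 17 UMIs in the gated cells. The monocyte list had 73.6 CPM in gated and 5.98 CPM in other cells, with 66.1 to 134 CPM in the 2 mice. Of its 8 markers 4 were at 0, among them Ccr2 and Ly6c2, which had only 2.05 and 0.27 CPM in other cells. At 10 gated cells the fit could not be made without cells that held a perivascular macrophage or monocyte marker. At 5 gated cells, a limit chosen after seeing the data, 5 mice and 34 gated cells entered without them. There 4 of the 9 genes passed, where 311 of 10080 genes passed in all. The part of the monocyte list in the 2-mouse result was not tested. None of the 25 other homeostatic genes, 12 transcription factors, 10 TGF-beta genes or 5 purinergic genes passed.

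**Figure D5:**
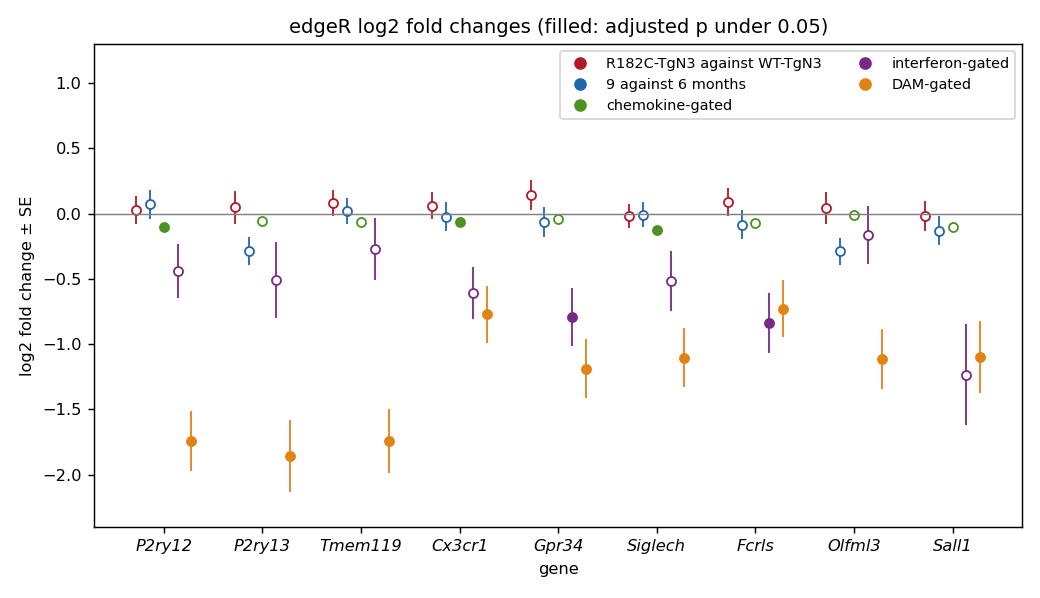
Log2 fold change of each gene with its SE in 5 comparisons fitted with edgeR, with filled points for an adjusted p under 0.05. All 9 points are filled and lie between -1.86 and -0.73 for DAM-gated cells, 3 are filled for chemokine-gated and 2 for interferon-gated cells, and none is filled for genotype or age.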

How the data were processed

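Single-cell 3′ libraries were made from 11 mice. The deposited values are whole-number UMI counts per gene and barcode, which the authors made with Cell Ranger 7.0.0 on mm10 with human NOTCH3 added, and which are not normalized. The kit version differs between the labels and the methods. The libraries held 17550806 to 64215050 UMIs. Barcodes needed 500 genes and no more than 10% mitochondrial UMIs, and the 0.8% per 1000 barcodes with the highest similarity to simulated doublets were removed, which left 58585 of 66658 barcodes. Classes came from fixed markers, at least 3 detected; gates for perivascular macrophages and monocytes were set here. A gate without Fcrls was added after the data were seen, and a check against another set of markers is not reported here.

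Counts were summed per mouse and class where at least 10 cells were present. Levels are UMIs per 1000000 UMIs of a class (CPM). Tests were edgeR 4.0.16 quasi-likelihood fits (R 4.3.3, TMM scaling, filterByExpr) with Benjamini-Hochberg adjustment over all genes tested; state fits had the mouse as a block. DESeq2 1.42.0, other filters, gates and covariates, and leaving out each mouse were alternatives. The fits of genotype and age in microglia and of chemokine-gated cells were tested on simulated data with 200 changed genes. The DAM-gated and interferon-gated fits were not. Python 3.11.15, numpy 2.4.6, scipy 1.17.1, pandas 2.3.3, scikit-learn 1.9.0 and matplotlib 3.10.9 were used.

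The genes and lists were chosen with earlier results of these data known. All 9 genes were named in every comparison, with at most 4 examples of each other list by the smallest unadjusted p in each direction, and the genes with the highest Pearson correlation to the 9 on log2(CPM + 1) over classes or log2 CPM over mice. Intervals and zero-count limits (3 counts) cover counting error only. Each library is 1 mouse, and same-numbered mice are different animals.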

Additional observations from a re-analysis of the deposited data

Results flagged for a closer look

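Of 36 groups of 4 to 6 mice checked for a single mouse far from the others, 3 stood out, and chance flags about 1 group in 20. A group in which only 1 mouse is above 0 is always flagged, as in both Sall1 groups below, so this rate does not hold there. In perivascular macrophages of CADASIL mice, Tmem119 had 189 CPM in 9-month mouse 3 (16 UMIs), and the nearest mouse had 46.3 CPM. In the same mouse and class, Sall1 had 59.1 CPM (5 UMIs) and was at 0 in the other CADASIL mice. In perivascular macrophages of control mice, Sall1 had 8.06 CPM in 6-month mouse 2 from 1 UMI and was at 0 in the others.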

How the results depend on the processing

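In the 6 comparisons of genotype and age none of the 9 genes was called in any of 149 fits, and in the 3 state comparisons at least 1 was called in 52 of 56 fits. Counts of genes called moved as follows. DAM-gated cells gave 7 of 9 with DESeq2, 7 with DESeq2's size factors, 8 with thinned UMIs summed, 5 in CADASIL mice alone and 5 in control mice alone, and 6 to 9 with 1 mouse left out. Chemokine-gated cells gave 0 with thinned UMIs summed and 0 in control mice alone, and 2 to 4 with 1 mouse left out. Interferon-gated cells gave 0 with DESeq2, 0 with DESeq2's size factors, and 4 with at least 5 gated cells (401 of 10315 genes in all). They also gave 4 at this limit after cells with perivascular macrophage or monocyte markers were left out (311 of 10080). Both settings with 4 were chosen after seeing the data.

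In chemokine-gated cells Gpr34 turned to 0.0012 (log2) with thinned UMIs, and Olfml3, not called, to 0.00014 with 1 marker more, 0.0035 without a filter, 0.031 with thinned UMIs, 0.013 with the gate free of the 9 genes, 0.000949 with the gate without Fcrls and 0.014 in control mice alone. With 1 mouse left out it ran from -0.020 to 0.00067. The cause was not tested.

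Over all genes, age gave 36 calls with edgeR, 247 with DESeq2 and 569 without a filter, and 453 without CADASIL 9-month mouse 3. DAM-gated calls ran from 129 to 1409 around 619, chemokine-gated from 228 to 1195 around 992 and interferon-gated from 84 to 401 around 146. Of DAM-gated calls 48.3% were higher with TMM, 67.8% with DESeq2's size factors and 78.7% with DESeq2, but 17.2% with thinned UMIs summed and 29.7% with at least 5 gated cells. For interferon these were 80.8%, 92.8%, 100%, 43.6% and 47.1%, and for age 27.8% with TMM, 45.7% with DESeq2 and 65.4% without a filter.

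With the replicate number as a block, genotype called 0 of the 9 genes and 0 of 11102 genes (edgeR, 254 at an unadjusted p under 0.05). Deviations of same-numbered mice correlated at 0.132, 0.0649 and 0.147 at 6 months and 0.262 and 0.434 at 9 months, so 1 of the 5 pairs was not over 0.1, the limit set for every pair. Same-numbered mice are different animals.

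Not fitted for want of gated cells were proliferation, 1 marker more for DAM and interferon, and, for interferon, CADASIL mice alone, single mice left out and marker-bearing cells left out at 10 cells.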

Other observations

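Proliferating microglia were rare. A gate on cell cycle genes took 21 of 10667 microglia, at most 7 in a mouse, so no test was made and the values are pooled UMIs. Gpr34 had 683 CPM in these cells, 54.1% of its level in other microglia, Siglech 527 CPM (58.1%) and P2ry12 1099 CPM (66.6%). Fcrls had 1184 CPM (117%), Olfml3 813 CPM (103%) and Sall1 234 CPM (104%). The dissociation list had 24079 CPM in gated and 42008 CPM in other cells.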
